A study of Homo sapiens with 12 samples.

Results

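Collagen genes are the genes for the chains of collagen trimers, which the array named COL, a type number, the letter A and a chain number. All rows of the log2 normalized table with such a symbol were taken, and the probe with the highest mean over the 12 arrays stood for each gene. This gave 43 collagen genes, measured by 70 probes, of 31334 gene symbols and 47231 probes in all. Of these genes 25 had 1 probe and 18 had more than 1. The genes were measured in MDA-MB-231, a breast carcinoma line grown as adherent cells, under 6 culture conditions with 2 arrays each.

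The conditions were Eagle's minimum essential medium (MEM) with 10% fetal bovine serum (FBS) at 50% confluence, MEM with 0.1% FBS at 90% confluence, MEM with 10% horse serum at 90% confluence, Dulbecco's modified Eagle's medium (DMEM) with 10% FBS at 90% confluence, RPMI-1640 medium with 10% FBS at 90% confluence, and MEM with 10% FBS at 90% confluence. They are called below 50% confluence, 0.1% FBS, horse serum, DMEM, RPMI-1640 and MEM 90%. Each of the other 5 conditions was set against MEM 90%, for cell density, serum concentration, serum species and medium, so that these 5 comparisons share the same 2 arrays. No group was set apart by a transgene or a drug. The authors' methods list penicillin-streptomycin, vitamins, sodium pyruvate, L-glutamine and non-essential amino acids as supplements of the media. The labels do not say whether the 2 arrays of a condition came from separate cultures, so the p-values measure the spread between these arrays, which may be technical.

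A collagen is a trimer of chains wound into a triple helix, built in the endoplasmic reticulum by hydroxylases and chaperones, secreted, trimmed and cross-linked outside the cell. Fibrillar collagens form the fibers of connective tissue, type IV forms the network of basement membranes, type VI forms beaded filaments and type VII anchors epithelia to the stroma. Fibril-associated collagens with interrupted helices (FACIT) sit on the surface of fibers, other collagens span the plasma membrane, and multiplexins are collagens of basement membrane zones that carry sugar chains. In carcinomas most collagen is made by stromal fibroblasts, while tumor cells in culture make their own narrower set.

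The arrays of MEM 90% stood apart from the other 10. Over all probes the arrays of a condition correlated at r = 0.987 to 0.996. A MEM 90% array and one of any other condition correlated at 0.914 to 0.940, and pairs from different conditions outside MEM 90% at 0.964 to 0.991. Of 15 markers commonly used for MDA-MB-231, 11 were above background on all 12 arrays. The keratin KRT8 and the protease PLAU, which are also on that list, stayed between 6.56 and 7.12 on the other 10 arrays and were at 9.80 to 10.63 on the MEM 90% arrays. Over the list 4, 2, 0, 0 and 3 of the 15 were called higher (limma, adjusted p under 0.05) and 10, 11, 10, 13 and 8 lower than in MEM 90% at 50% confluence, in 0.1% FBS, horse serum, DMEM and RPMI-1640, and those higher at 50% confluence were MET (log2 difference 0.89), CAV2 (0.62), VIM (0.49) and CD44 (0.47). Of all probes 9.42% to 10.9% were called higher and 9.82% to 11.5% lower in these comparisons. The same shares apply to the marker lists that follow. Of 14 measured melanocyte-lineage markers, 8 were above background on all 12 arrays. Their summed signal was 4594 to 18258 on the other 10 arrays and 3014 to 3268 on the MEM 90% arrays, and the transcription factor SOX10 lay at 9.65 to 11.11 on the other 10 arrays and at 8.29 and 8.22 in MEM 90%, while MLANA and SILV stayed near background. In the same order 5, 10, 6, 8 and 8 of the 14 were called higher and 2, 0, 1, 0 and 2 lower, with TYR at -0.81 and CAPN3 at -1.19 at 50% confluence, TYR at -0.94 in horse serum, and TYR at -0.42 and CAPN3 at -0.66 in RPMI-1640. The fibroblast markers PDGFRA, PDGFRB, DCN and THY1 were at background, and of 9 fibroblast markers only S100A4 was above it on all 12 arrays. The summed signal of the list was 2852 to 5985 on the other 10 arrays and 1165 to 1189 in MEM 90%. This difference was mainly that of S100A4, with log2 differences of 3.20, 3.13, 4.21, 4.27 and 3.03 in the same order. In this order 2, 2, 1, 1 and 1 of the 9 were called higher and 0, 1, 1, 0 and 1 lower. The others called were FAP at 50% confluence (0.35), LUM in 0.1% FBS (0.73), and PDGFRB in 0.1% FBS, horse serum and RPMI-1640 (-0.29, -0.28 and -0.28). Of 4 blood cell markers none was above background on all 12 arrays, and their summed signal was 410 to 482 on the other 10 arrays and 1047 to 1081 in MEM 90%. This was mainly the difference of LAPTM5, with log2 differences of -2.82, -2.76, -2.77, -2.67 and -2.55 in the same order. Of the 4 blood cell markers 0 were called higher in each comparison and 2, 2, 1, 2 and 2 lower. The part of these differences in the collagen results was not tested. In cultures measured in bulk, fewer cells of a type and less RNA per cell cannot be told apart.

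Olfactory receptor genes are silent outside the nose in most cells, so the 95th percentile of their 446 probes served as the background of an array, which was a log2 signal of 6.89 to 6.99. A collagen counted as above background in a condition when both of its arrays passed. By this measure 23 of 43 collagens (53.5%) were above background in at least 1 condition, against 49.1% of all symbols and 4.48% of the olfactory receptor probes. This share was close to that of all symbols. That of the olfactory receptor probes was set low in advance, since the cutoff was their own 95th percentile, so nothing is concluded from it. The count was 9 of 43 (20.9%) at 50% confluence, 13 (30.2%) in 0.1% FBS, 10 (23.3%) in horse serum, 11 (25.6%) in DMEM, 13 (30.2%) in RPMI-1640 and 16 (37.2%) in MEM 90%. Over all symbols the corresponding shares were 37.4%, 38.0%, 36.3%, 37.8%, 39.8% and 41.9%, so the collagen share was the lower one in each single condition. The 2 arrays of a condition did not always pass alike, with 13 and 15 collagens above background on the arrays of 50% confluence and 20 and 14 on those of RPMI-1640.

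Only 7 collagens passed in all 6 conditions, COL6A1, COL7A1, COL8A1, COL8A2, COL12A1, COL13A1 and COL16A1. This was 16.3% of the collagens, against 31.2% of all symbols. In MEM 90% alone COL1A1, COL4A2, COL5A1, COL6A2, COL6A3 and COL18A1 passed, and COL5A2 passed in every condition except MEM 90%. COL9A1 and COL24A1 passed in 0.1% FBS alone, COL20A1 in horse serum alone, and COL1A2 and COL23A1 in RPMI-1640 alone. COL23A1 lay just inside the threshold, at 6.89 and 6.96 on the RPMI-1640 arrays with background at 6.89 and 6.95, and COL14A1 just outside it, above background on 4 arrays but on both arrays of no condition. The remaining 20 collagens passed in no condition, among them the cartilage and connective tissue genes COL2A1, COL3A1, COL10A1, COL11A1 and COL11A2. The others were COL4A3, COL4A4, COL4A6, COL5A3, COL6A6, COL9A2, COL9A3, COL14A1, COL15A1, COL19A1, COL21A1, COL22A1, COL25A1, COL28A1 and COL29A1, the older symbol of COL6A5. Their array values lay between 6.31 and 7.18, and 13 of the 20 were above background on no array.

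**Figure D1:**
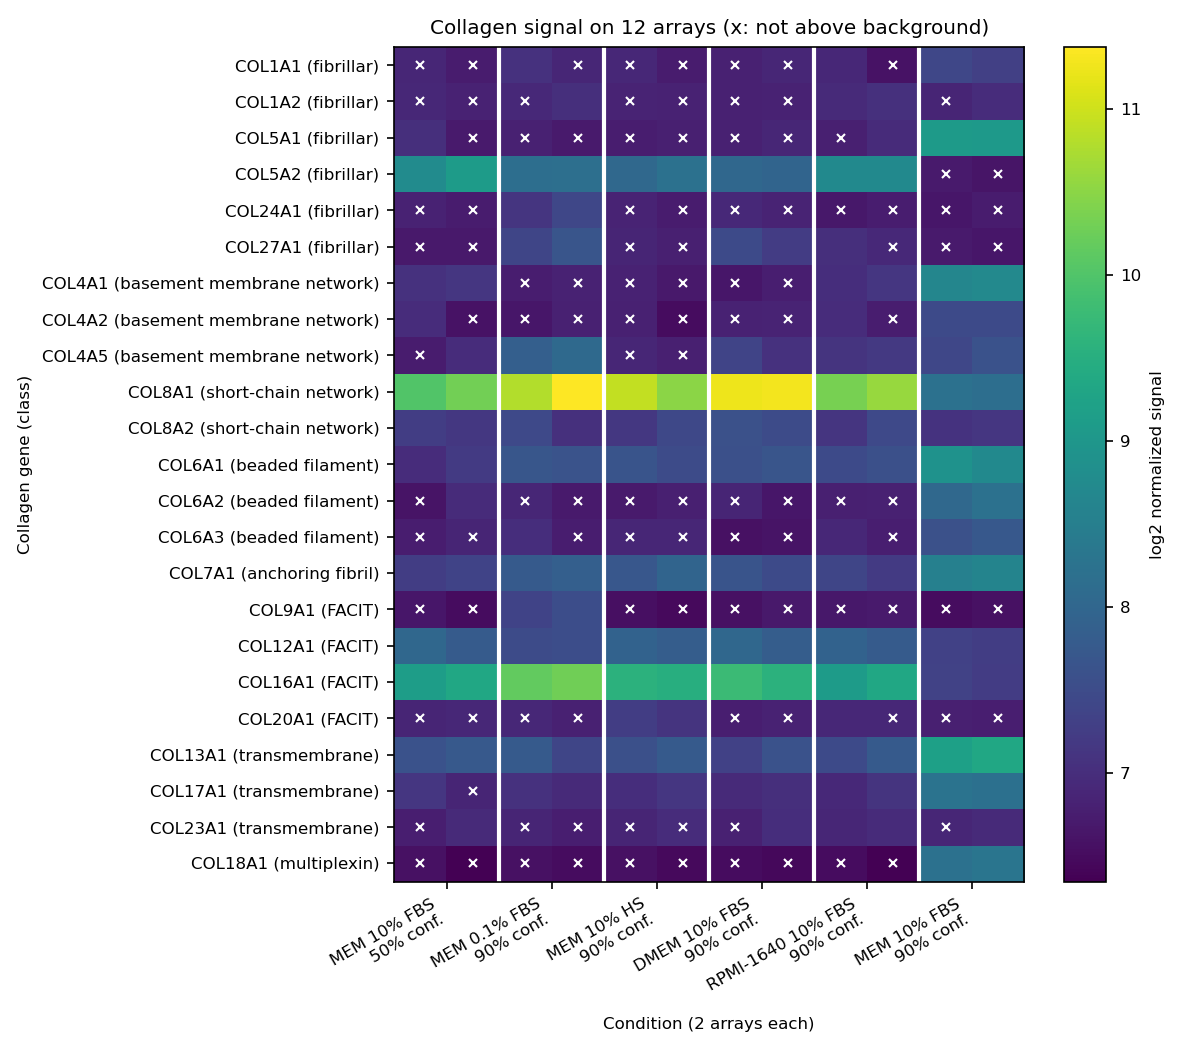
Log2 normalized signal (color) of the 23 collagens that were above background in at least 1 condition (rows, with class) on the 12 arrays (columns, 2 per condition), with a cross where an array was not above background; colors can be read along a row but not between genes. The last 2 columns, MEM 90%, differ from the other 10 in both directions.

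Differences were tested with limma over all 47231 probes and called at a Benjamini-Hochberg adjusted p under 0.05. At 50% confluence 17 of 43 collagens were called against MEM 90%, 4 higher and 13 lower, where 19.8% of all probes were called (9.42% higher and 10.3% lower). In 0.1% FBS 19 were called, 7 higher and 12 lower, against 22.3% of all probes (10.9% higher and 11.5% lower). In horse serum 17 were called, 5 higher and 12 lower, against 21.9% of all probes (10.4% higher and 11.5% lower). Calls were thus more frequent among the collagens than among all probes, which was not tested as a difference. These shares are unlike, since a collagen entered by its brightest probe and all probes include the dimmer ones of each gene. In DMEM 17 were called, 6 higher and 11 lower, against 20.9% of all probes (10.0% higher and 10.9% lower). In RPMI-1640 17 were called, 4 higher and 13 lower, against 19.2% of all probes (9.42% higher and 9.82% lower). The median difference over the 43 collagens, 20 of which were above background in no condition, lay between -0.030 and -0.00081 in these comparisons, and that over all probes was at most 0.0099. The plain t-test, which does not share the spread between probes, called 0 of the 43 collagens after the same adjustment in 4 of these comparisons and 3 in DMEM, while at an unadjusted P under 0.05 it called 15, 17, 17, 18 and 16 in the order above. The share of all probes that passed this t-test is not given here. At an unadjusted p under 0.05 limma gave 19, 21, 18, 20 and 18 collagens, where 26.9%, 28.7%, 29.2%, 28.6% and 26.4% of all probes passed.

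**Figure D2:**
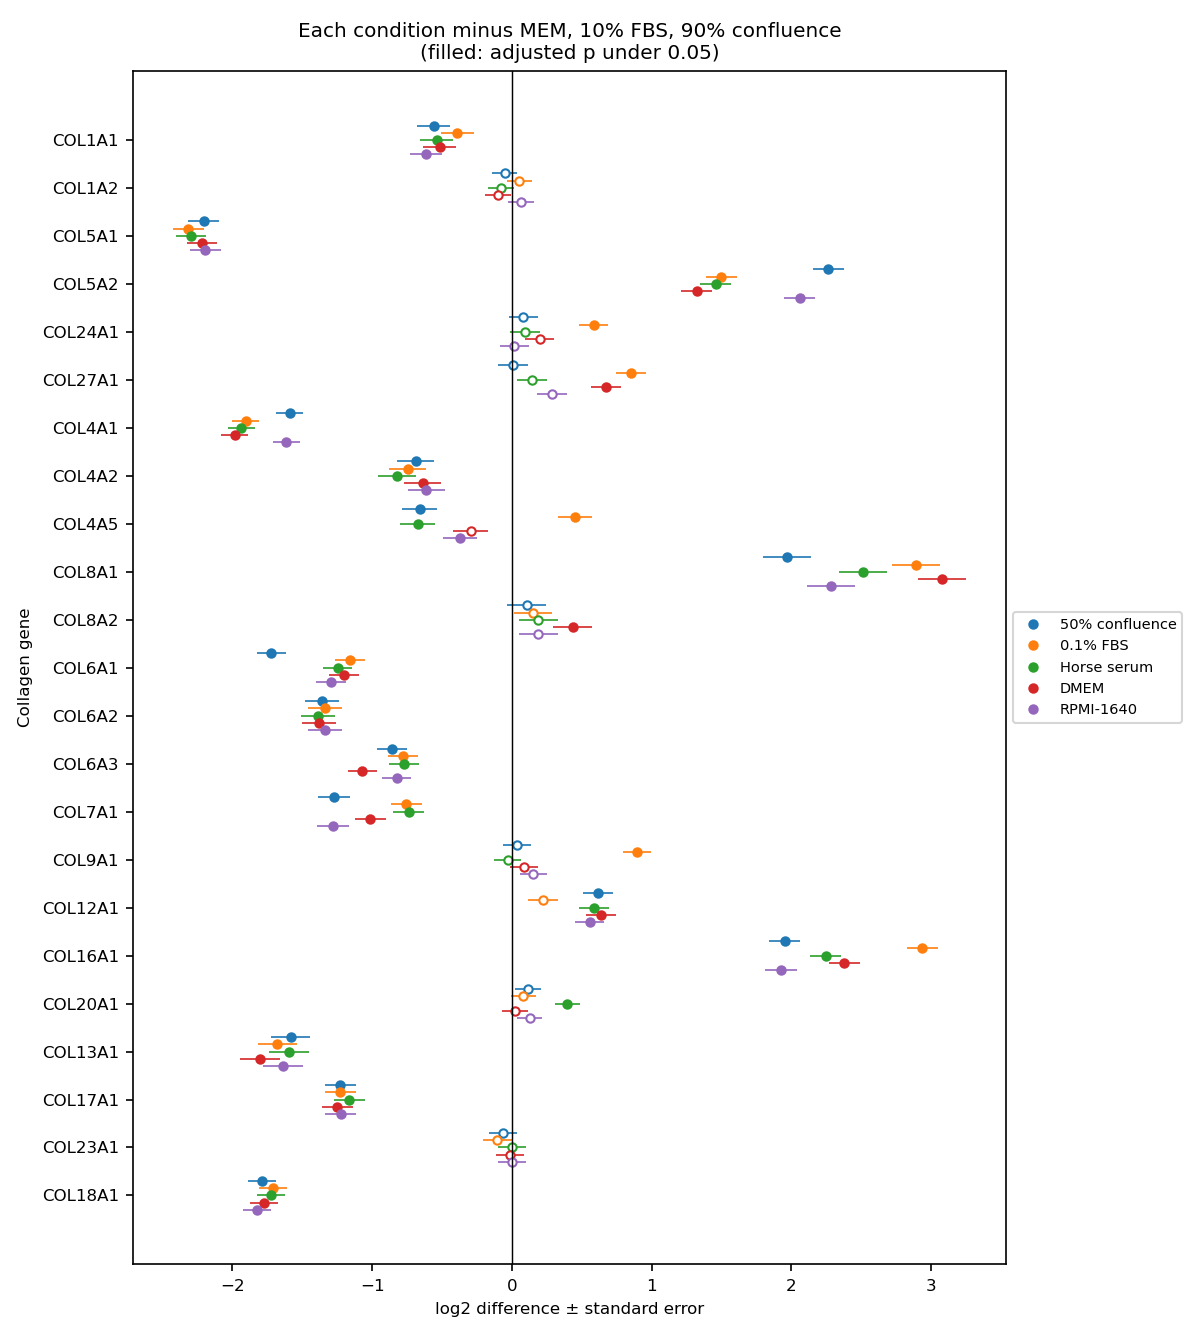
Log2 difference ± standard error of 5 conditions (colors) from MEM 90% for the 23 collagens above background in at least 1 condition, filled where the limma adjusted p was under 0.05. COL5A1, COL4A1, COL18A1 and COL13A1 lay between -2.32 and -1.58 and COL8A1, COL16A1 and COL5A2 between 1.32 and 3.08 in all 5 comparisons, which share the MEM 90% arrays.

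Among the fibrillar collagens, the chains of type V moved in opposite directions. COL5A1, the main chain of type V collagen, which nucleates fibers, had a log2 signal of 7.02 and 6.70 at 50% confluence, 6.80 and 6.70 in 0.1% FBS, 6.75 and 6.79 in horse serum, 6.82 and 6.88 in DMEM and 6.79 and 6.96 in RPMI-1640, against 9.09 and 9.05 in MEM 90%. It was thus at or near background on 10 arrays and well above it on 2, with no overlap. The log2 difference was -2.21, -2.32, -2.30, -2.22 and -2.19 in this order (SE 0.11 each), with limma adjusted p of 3.4e-10 to 8.5e-10. The fall was 4.61-fold at 50% confluence and 4.58-fold in RPMI-1640, where 1 array passed background, and at least 4.37-fold, 4.27-fold and 4.36-fold in 0.1% FBS, horse serum and DMEM, where the bound sets the MEM 90% mean against background.

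COL5A2, its partner chain, ran the other way. Its log2 signal was 8.77 and 9.11 at 50% confluence, 8.17 and 8.18 in 0.1% FBS, 8.05 and 8.22 in horse serum, 8.03 and 7.96 in DMEM and 8.73 and 8.74 in RPMI-1640, against 6.72 and 6.63 in MEM 90%. The other 10 arrays were all higher than the MEM 90% arrays, which were below background. COL5A2 was at least 4.09-fold higher at 50% confluence, 2.41-fold in 0.1% FBS, 2.34-fold in horse serum, 2.13-fold in DMEM and 3.55-fold in RPMI-1640 (log2 differences 2.26, 1.50, 1.46, 1.32 and 2.06, SE 0.11, limma adjusted p 6.8e-10 to 2.4e-07).

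The other fibrillar chains gave smaller differences. COL1A1, the main chain of type I collagen of bone and skin, had 6.60 to 7.06 on the other 10 arrays, against 7.43 and 7.30 in MEM 90%, without overlap. Its log2 difference was -0.56, -0.39, -0.54, -0.52 and -0.61 at 50% confluence, in 0.1% FBS, horse serum, DMEM and RPMI-1640 (SE 0.12, limma adjusted p 0.0021, 0.024, 0.0027, 0.0038 and 0.0010). Leaving out replicate 1 of MEM 90% ended the call in 0.1% FBS (adjusted p = 0.20) and in DMEM (0.058), and so did leaving out replicate 2 of either 0.1% FBS (0.17) or MEM 90% (0.053) for 0.1% FBS. COL1A2, which pairs with it in the type I trimer, stayed at 6.81 to 7.04 on all 12 arrays, at the edge of background, and was called in none of these comparisons. COL27A1, a fibrillar chain of growing cartilage, had 7.41 and 7.68 in 0.1% FBS and 7.48 and 7.25 in DMEM, against 6.72 and 6.66 in MEM 90%, which is at least 1.56-fold and at least 1.37-fold (log2 differences 0.85 and 0.68, SE 0.11, limma adjusted p 1.5e-05 and 0.00019). COL24A1, a minor fibrillar chain known from bone, had 7.13 and 7.42 in 0.1% FBS and 6.66 and 6.73 in MEM 90%, at least 1.29-fold higher (log2 difference 0.58, SE 0.11, limma adjusted p 0.00051). Both chains were above background on no array of 50% confluence or horse serum.

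In type IV collagen, the basement membrane network, the ubiquitous pair and the minor chain behaved differently. COL4A1 had a log2 signal of 7.06 and 7.14 at 50% confluence, 6.74 and 6.82 in 0.1% FBS, 6.82 and 6.68 in horse serum, 6.65 and 6.76 in DMEM and 7.01 and 7.13 in RPMI-1640, against 8.65 and 8.72 in MEM 90%. All 10 arrays were below the MEM 90% arrays, and only those of 50% confluence and RPMI-1640 passed background. The fall was 3.01-fold and 3.07-fold in those conditions, and at least 3.35-fold in 0.1% FBS, 3.28-fold in horse serum and 3.35-fold in DMEM (log2 differences of -1.59, -1.62, -1.90, -1.94 and -1.98, SE 0.10, limma adjusted p 6.0e-10 to 7.6e-09). COL4A2, the other chain of the common type IV trimer, had 6.51 to 6.99 on the other 10 arrays, against 7.48 and 7.48 in MEM 90%, again without overlap. Its log2 difference was -0.69, -0.74, -0.82, -0.64 and -0.61 at 50% confluence, in 0.1% FBS, horse serum, DMEM and RPMI-1640 (SE 0.13, limma adjusted p 0.00021 to 0.0030). Without replicate 2 of RPMI-1640 the last of these had an adjusted p of 0.050.

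COL4A1 and COL4A2 lie head to head on chromosome 13 and both fell, so their start regions are shown. Of the 43 collagens 31 had a promoter window in RefSeq (GRCh38.p14, 250 bases before to 50 after the start), and those of COL4A1 (chr13:110307108-110307407, minus strand) and COL4A2 (chr13:110307034-110307333, plus strand) share 226 bases. Capitals mark 3 motifs searched on both strands, the GC box GGGCGG or CCGCCC, the CCAAT box CCAAT or ATTGG, and the TATA box TATAAA or TTTATA.
COL4A1: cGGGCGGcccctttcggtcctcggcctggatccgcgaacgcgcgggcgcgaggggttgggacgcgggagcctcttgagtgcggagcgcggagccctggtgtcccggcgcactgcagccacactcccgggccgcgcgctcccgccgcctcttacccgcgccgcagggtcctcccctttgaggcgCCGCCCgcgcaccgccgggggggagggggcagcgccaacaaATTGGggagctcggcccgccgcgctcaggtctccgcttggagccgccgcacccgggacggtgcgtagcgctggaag
COL4A2: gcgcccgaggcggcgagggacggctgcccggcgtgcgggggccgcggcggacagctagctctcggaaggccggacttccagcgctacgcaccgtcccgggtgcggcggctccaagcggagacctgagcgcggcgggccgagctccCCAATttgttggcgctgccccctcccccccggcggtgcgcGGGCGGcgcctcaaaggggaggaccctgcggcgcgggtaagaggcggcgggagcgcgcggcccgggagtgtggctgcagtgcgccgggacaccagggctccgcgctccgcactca
Both windows held the same CCAAT box, read on opposite strands, and no TATA box. Of all 35116 promoter windows 45.0% held a GC box, 34.6% a CCAAT box and 11.5% a TATA box, and of the 21 windows of collagens above background 14, 5 and 5 did. For comparison, the windows of COL5A1 (chr9:134641553-134641852, plus strand) and COL16A1 (chr1:31703968-31704267, minus strand), which moved in opposite directions, are given with the same capitals.
COL5A1: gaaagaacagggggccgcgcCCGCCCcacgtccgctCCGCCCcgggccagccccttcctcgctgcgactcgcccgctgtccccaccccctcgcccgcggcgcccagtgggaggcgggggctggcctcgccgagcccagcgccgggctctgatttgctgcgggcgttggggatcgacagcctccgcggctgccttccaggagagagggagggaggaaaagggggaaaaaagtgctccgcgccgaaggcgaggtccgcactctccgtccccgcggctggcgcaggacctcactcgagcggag
COL16A1: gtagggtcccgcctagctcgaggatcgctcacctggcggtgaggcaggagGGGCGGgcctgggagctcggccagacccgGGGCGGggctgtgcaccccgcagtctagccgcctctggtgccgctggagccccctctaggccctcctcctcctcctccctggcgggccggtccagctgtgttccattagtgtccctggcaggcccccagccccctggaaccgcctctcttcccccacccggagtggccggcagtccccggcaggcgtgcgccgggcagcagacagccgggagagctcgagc
Each of these held 2 GC boxes and neither of the other motifs, and a match is only a match of letters.

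COL4A5, a chain of kidney and eye basement membranes whose loss gives Alport syndrome, differed from MEM 90% in both directions. It had a log2 signal of 6.72 and 6.98 at 50% confluence, 7.88 and 8.06 in 0.1% FBS, 6.89 and 6.79 in horse serum, 7.37 and 7.07 in DMEM and 7.09 and 7.19 in RPMI-1640, against 7.42 and 7.61 in MEM 90%. The 0.1% FBS arrays were above all others, and those of 50% confluence and horse serum lay around background. COL4A5 rose 1.37-fold in 0.1% FBS (log2 difference 0.45, SE 0.12, limma adjusted p = 0.013), and fell 1.58-fold at 50% confluence (-0.66, adjusted p = 0.00082) and at least 1.46-fold in horse serum (-0.67, adjusted p = 0.00062). It was -0.37 in RPMI-1640 (adjusted p = 0.046) and -0.29 in DMEM (adjusted p = 0.12). The rise in 0.1% FBS was not called without replicate 2 of 0.1% FBS (adjusted p = 0.11) or replicate 1 of MEM 90% (0.16), and the RPMI-1640 call was lost without any 1 of its 4 arrays (adjusted p 0.063 to 0.36). Over the mean of its 2 probes, of which the dimmer lay at background in MEM 90%, COL4A5 gave 0.21 in 0.1% FBS (adjusted p = 0.21) and -0.30 in RPMI-1640 (0.056). COL4A6, its neighbor on chromosome X, and COL4A3 and COL4A4 were above background on no array.

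**Figure D3:**
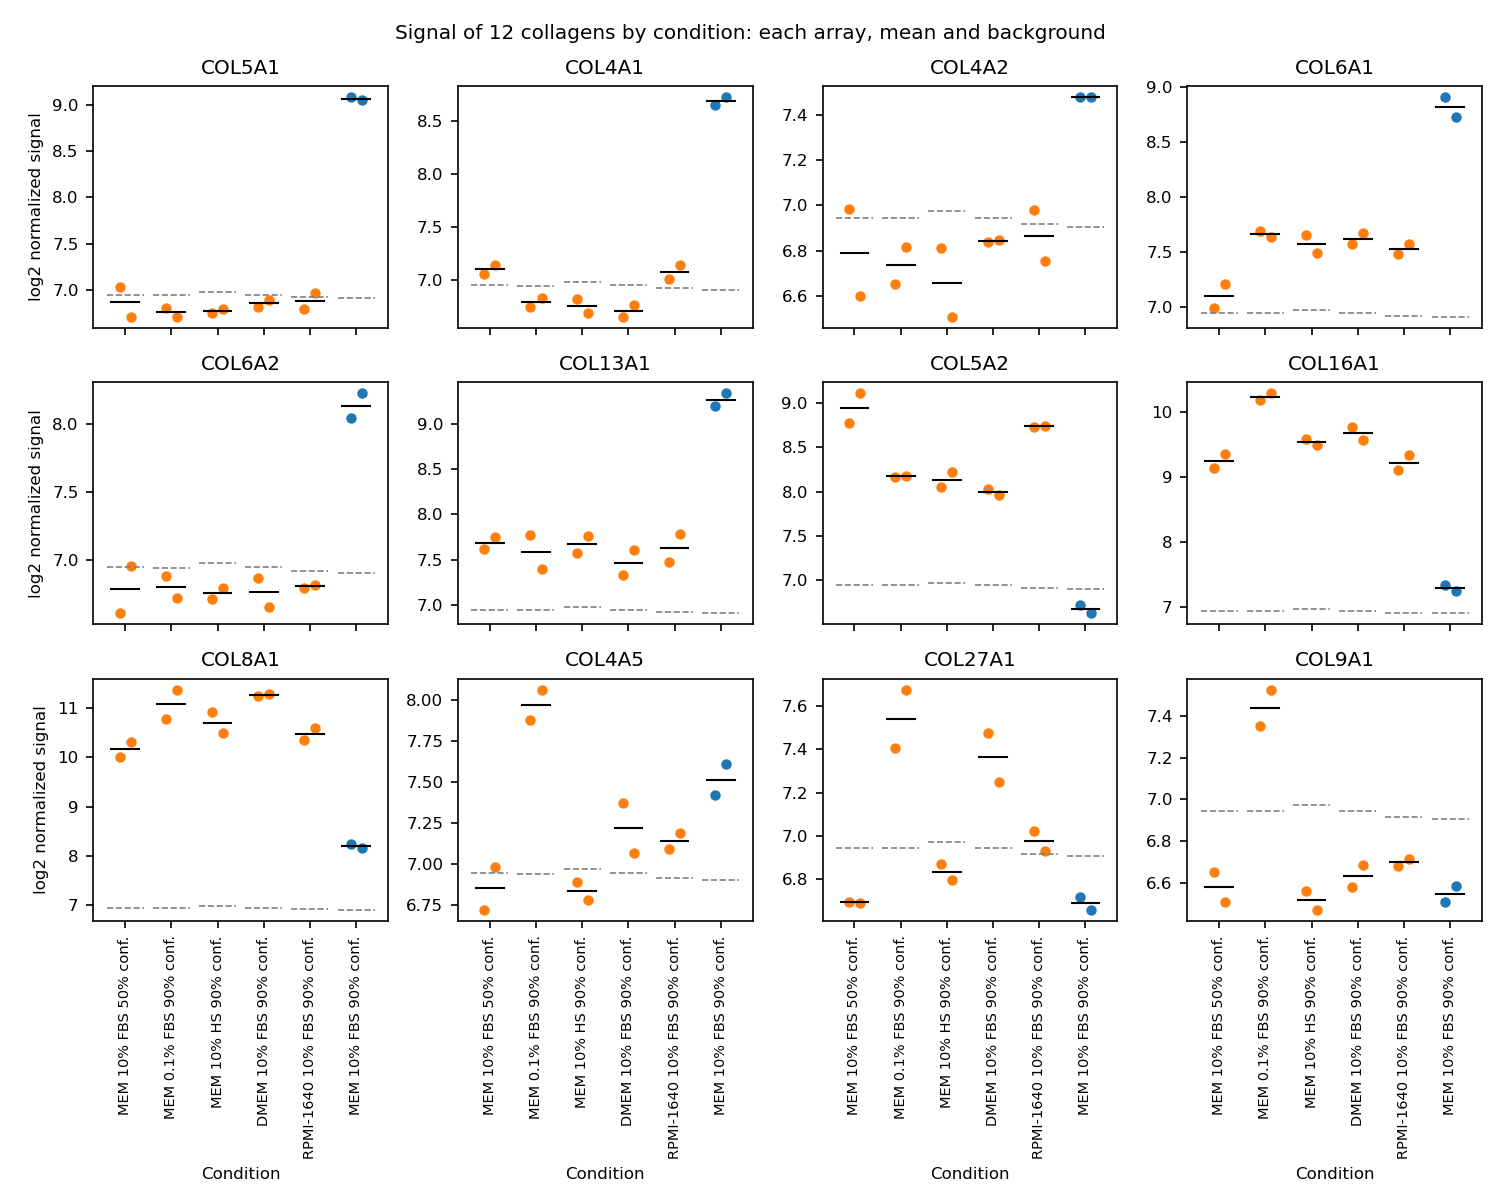
Log2 normalized signal of 12 collagens on each of the 2 arrays of every condition (points, MEM 90% in blue and the other conditions in orange), with the condition mean (bar) and the mean background of its arrays (dashed line); each panel has its own vertical scale. COL4A5, COL27A1 and COL9A1 were highest in 0.1% FBS, while COL5A2, COL16A1 and COL8A1 were lowest in MEM 90%.

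The 3 type VI chains that passed background all fell. COL6A1, a chain that builds the type VI beaded filament around cells, had a log2 signal of 6.99 and 7.21 at 50% confluence, 7.69 and 7.64 in 0.1% FBS, 7.65 and 7.49 in horse serum, 7.57 and 7.67 in DMEM and 7.48 and 7.57 in RPMI-1640, against 8.91 and 8.73 in MEM 90%. It was above background on every array, lowest at 50% confluence, and fell 3.30-fold, 2.23-fold, 2.37-fold, 2.30-fold and 2.45-fold in this order (log2 differences -1.72, -1.16, -1.25, -1.20 and -1.29, SE 0.11, limma adjusted p 9.6e-09 to 5.0e-07). COL6A2, its neighbor on chromosome 21, had 6.60 to 6.96 on the other 10 arrays, against 8.05 and 8.23 in MEM 90%, and fell 2.56-fold at 50% confluence and at least 2.24-fold to 2.33-fold in the others (log2 differences -1.33 to -1.39, SE 0.12, limma adjusted p 4.2e-07 to 7.0e-07). Of its other probes, 1 gave -1.20 to -1.40 and 1 lay near background and gave -0.08 to 0.02. COL6A3, the longest chain of the trimer, had 6.57 to 7.01 on the other 10 arrays, against 7.59 and 7.73 in MEM 90%, with log2 differences of -0.86, -0.78, -0.77, -1.07 and -0.83 (SE 0.11, limma adjusted p 1.5e-06 to 4.2e-05).

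COL7A1, which forms the anchoring fibrils under epithelia, was above background on every array. It had a log2 signal of 7.26 and 7.36 at 50% confluence, 7.78 and 7.86 in 0.1% FBS, 7.70 and 7.98 in horse serum, 7.66 and 7.47 in DMEM and 7.39 and 7.20 in RPMI-1640, against 8.54 and 8.61 in MEM 90%. All 10 arrays were below the MEM 90% arrays, those of 50% confluence and RPMI-1640 the furthest. The fall was 2.42-fold, 1.69-fold, 1.67-fold, 2.02-fold and 2.43-fold in this order (log2 differences -1.27, -0.76, -0.74, -1.01 and -1.28, SE 0.11, limma adjusted p 4.5e-07 to 0.00011).

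The FACIT collagens held the gene with the strongest rise in 0.1% FBS. COL16A1, which links matrix fibers to cells, had a log2 signal of 9.14 and 9.35 at 50% confluence, 10.18 and 10.28 in 0.1% FBS, 9.59 and 9.50 in horse serum, 9.77 and 9.57 in DMEM and 9.11 and 9.34 in RPMI-1640, against 7.34 and 7.25 in MEM 90%. The 0.1% FBS arrays were above all others and the MEM 90% arrays below all others. It rose 3.87-fold, 7.65-fold, 4.74-fold, 5.20-fold and 3.80-fold in this order (log2 differences 1.95, 2.94, 2.25, 2.38 and 1.93, SE 0.11, limma adjusted p 3.1e-11 to 4.8e-09). COL12A1, which coats type I fibers, had 7.50 to 8.03 on the other 10 arrays, against 7.33 and 7.27 in MEM 90%, without overlap. It rose by 0.62 at 50% confluence, 0.59 in horse serum, 0.64 in DMEM and 0.56 in RPMI-1640 on the log2 scale (SE 0.11, limma adjusted p 0.00027 to 0.00099), and in 0.1% FBS, at 7.50 and 7.54, the difference was 0.22 (adjusted p = 0.18). Its other probe gave -0.01 at 50% confluence, 0.09 in 0.1% FBS, 0.24 in horse serum, -0.05 in DMEM and 0.11 in RPMI-1640 and was called in none of these comparisons.

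Of the other FACIT genes COL9A1 and COL20A1 passed background, each in a single condition. COL9A1, a cartilage collagen, had 7.35 and 7.53 in 0.1% FBS and 6.47 to 6.72 on the other 10 arrays. It was at least 1.45-fold higher in 0.1% FBS than in MEM 90% (log2 difference 0.89, SE 0.10, limma adjusted p = 3.4e-06), while its other 3 probes gave -0.01, 0.25 and 0.17 and were not called. COL20A1 had 7.26 and 7.10 in horse serum and 6.79 and 6.77 in MEM 90%, at least 1.21-fold higher (log2 difference 0.40, SE 0.09, limma adjusted p = 0.0039), with an adjusted p of 0.058 without replicate 1 of horse serum. COL9A2 was called lower in 0.1% FBS, at 50% confluence and in RPMI-1640 (log2 differences -0.39, -0.31 and -0.30) although it was above background on no array, so no fold is given.

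COL8A1, the short-chain collagen of vessel walls and of the membrane behind the cornea, had the largest difference of any collagen, in DMEM. Its brightest probe had a log2 signal of 10.02 and 10.31 at 50% confluence, 10.79 and 11.38 in 0.1% FBS, 10.91 and 10.49 in horse serum, 11.26 and 11.29 in DMEM and 10.35 and 10.60 in RPMI-1640, against 8.23 and 8.16 in MEM 90%. All 10 arrays were above those of MEM 90%, and the rise was 3.91-fold, 7.41-fold, 5.70-fold, 8.44-fold and 4.87-fold (log2 differences 1.97, 2.89, 2.51, 3.08 and 2.28, SE 0.17, limma adjusted p 2.8e-09 to 4.1e-07). The second probe gave 0.82, 1.59, 1.35, 1.69 and 1.12, all called. The third probe gave 0.97, 0.58, 0.05, 0.55 and 0.90, called in all but horse serum, where its signal was 7.03 and 6.94 against 6.92 and 6.95 in MEM 90%. The 3 probes thus gave the same direction but unequal sizes, and the horse serum rise was not called on 1 of them. COL8A2, the partner chain, stayed at 7.05 to 7.59 on all 12 arrays, and its difference of 0.44 in DMEM (SE 0.14, limma adjusted p = 0.035) was lost without any 1 of the 4 arrays compared (adjusted p 0.089 to 0.19) and on its other probe, which gave -0.10.

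Of the transmembrane collagens COL13A1 and COL17A1, and with them COL18A1, were lower in all 5 conditions than in MEM 90%. COL13A1, a collagen of cell adhesion sites, had a log2 signal of 7.62 and 7.75 at 50% confluence, 7.78 and 7.40 in 0.1% FBS, 7.58 and 7.77 in horse serum, 7.32 and 7.61 in DMEM and 7.48 and 7.78 in RPMI-1640, against 9.20 and 9.34 in MEM 90%. The 10 arrays lay in 1 narrow band below the MEM 90% arrays, and the fall was 3.00-fold to 3.49-fold (log2 differences -1.58, -1.68, -1.60, -1.80 and -1.64, SE 0.14, limma adjusted p 1.2e-07 to 5.1e-07), with -1.47 to -1.97 on its other probe. COL17A1, the hemidesmosome collagen that fastens epithelial cells to the basement membrane, had 6.87 to 7.15 on the other 10 arrays, against 8.26 and 8.21 in MEM 90%, without overlap. It fell 2.24-fold to 2.38-fold (log2 differences -1.17 to -1.25, SE 0.11, limma adjusted p 4.0e-07 to 9.0e-07), and its other probe gave -0.36 to -0.50, also called in each. COL18A1, the multiplexin from which endostatin is cut, had 6.35 to 6.58 on the other 10 arrays, all below background, against 8.22 and 8.30 in MEM 90%, and was at least 2.43-fold to 2.53-fold lower (log2 differences -1.71 to -1.82, SE 0.10, limma adjusted p 2.7e-09 to 4.8e-09). Its other probe was at background throughout and gave -0.10 to 0.02. COL23A1 was called in none of these comparisons.

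Because every value above rests on the same MEM 90% arrays, the 5 other conditions were also compared among themselves. Over these conditions 13 of 43 collagens differed (limma F-test, adjusted p under 0.05), against 19.9% of all probes, and over all 6 conditions 21 did, against 30.1%. Over MEM, DMEM and RPMI-1640 at 90% confluence with 10% FBS 17 differed, against 23.7%. The 13 were COL4A1, COL4A5, COL5A2, COL6A1, COL7A1, COL8A1, COL9A1, COL12A1, COL15A1, COL16A1, COL20A1, COL24A1 and COL27A1. Among these COL15A1 was above background in no condition. COL1A1, COL4A2, COL5A1, COL6A2, COL6A3, COL13A1, COL17A1 and COL18A1, which were called against MEM 90% in every comparison, were not among the 13.

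DMEM against RPMI-1640, both with 10% FBS at 90% confluence, is a comparison of media that leaves MEM 90% out. In DMEM 5 of 43 collagens were called, 2 higher and 3 lower, against 5.33% of all probes (2.35% higher and 2.98% lower). COL8A1 was 1.73-fold higher in DMEM (log2 difference 0.79, SE 0.17, limma adjusted p = 0.013) and COL16A1 1.37-fold (0.45, SE 0.11, adjusted p = 0.027). COL5A2 was 1.67-fold lower (-0.74, SE 0.11, adjusted p = 0.00088), with no overlap between 8.03 and 7.96 in DMEM and 8.73 and 8.74 in RPMI-1640, and COL4A1 was at least 1.09-fold lower (-0.37, SE 0.10, adjusted p = 0.037). COL15A1, a multiplexin, gave -0.42, with 1 RPMI-1640 array above background and no DMEM array, and is named only because it completes the 5. Most of these calls rested on single arrays. The number of calls was 1 without replicate 1 of DMEM, 2 without its replicate 2, 1 and 3 without replicates 1 and 2 of RPMI-1640, and 3 without either array of MEM 90%, which enter through the shared spread. COL8A1 had an adjusted p of 0.085 and 0.11 without replicates 1 and 2 of DMEM and 0.13 without replicate 1 of RPMI-1640, and over the mean of its 3 probes the difference was 0.33 (adjusted p = 0.18). COL16A1 had 0.23 and 0.25 without replicate 1 of DMEM and of RPMI-1640, and COL4A1 0.063 to 0.24 without any 1 of these 6 arrays, while the COL5A2 call held with each array left out.

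The conditions at 90% confluence were also set against 50% confluence in MEM with 10% FBS, where confluence differs together with serum or medium and the effects of these cannot be told apart. In 0.1% FBS 11 of 43 collagens were called, 8 higher and 3 lower, against 10.8% of all probes (5.43% higher and 5.39% lower). COL4A5 rose 2.16-fold (log2 difference 1.11, SE 0.12, limma adjusted p = 2.0e-05), COL16A1 1.98-fold (0.99, SE 0.11, adjusted p = 2.5e-05) and COL8A1 1.89-fold (0.92, SE 0.17, adjusted p = 0.0019). COL9A1, COL27A1 and COL24A1 rose at least 1.41-fold, 1.51-fold and 1.26-fold, and COL6A1 and COL7A1 1.48-fold and 1.43-fold. COL5A2 fell 1.70-fold (-0.76, SE 0.11, adjusted p = 0.00022), COL12A1 1.32-fold (-0.40, SE 0.11, adjusted p = 0.023) and COL4A1 at least 1.11-fold (-0.31, SE 0.10, adjusted p = 0.048). The COL4A1 call was lost without any 1 array other than those of horse serum (adjusted p 0.052 to 0.22) and the COL12A1 call without replicate 1 of 50% confluence (adjusted p = 0.27) or either array of 0.1% FBS (0.11 and 0.061). COL24A1 was lost without replicate 2 of 50% confluence (adjusted p = 0.050) or of 0.1% FBS (0.067), COL7A1 without replicate 1 of 50% confluence (0.070), and over the mean of their probes COL9A1 gave 0.24 (0.11) and COL12A1 -0.15 (0.40).

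In horse serum 5 of 43 collagens were called against 50% confluence, 2 higher and 3 lower, where 9.48% of all probes were called (4.55% higher and 4.93% lower). COL7A1 and COL6A1 rose 1.45-fold and 1.39-fold (log2 differences 0.53 and 0.47, SE 0.11, limma adjusted p 0.0059 and 0.0092), COL5A2 fell 1.74-fold (-0.80, SE 0.11, adjusted p = 0.00027), and COL4A1 and COL15A1 gave -0.35 and -0.43. The share of collagens called was near the background. Without replicate 1 of 50% confluence 2 calls were left, and without its replicate 2 or replicate 2 of horse serum 3. COL6A1 had an adjusted p of 0.12 without replicate 1 of 50% confluence and 0.091 without replicate 1 of horse serum, COL7A1 0.062 without replicate 1 of 50% confluence and 0.077 without replicate 2 of horse serum, and COL4A1 0.054 to 0.21 without either array of 50% confluence or MEM 90% or replicate 2 of horse serum. COL8A1 gave 0.54 (adjusted p = 0.063) on its brightest probe and 0.53 (adjusted p = 0.020) on the second, but -0.93 (adjusted p = 0.00011) on the third, which also gave -0.39 in 0.1% FBS and -0.43 in DMEM (adjusted p 0.038 and 0.030). The direction of COL8A1 relative to 50% confluence thus depended on the probe.

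In DMEM 7 of 43 collagens were called against 50% confluence, 4 higher and 3 lower, where 8.35% of all probes were called (4.09% higher and 4.26% lower). COL8A1 rose 2.16-fold on its brightest probe (log2 difference 1.11, SE 0.17, limma adjusted p = 0.00071), COL27A1 at least 1.34-fold (0.67, SE 0.11, adjusted p = 0.00095), COL6A1 1.43-fold and COL16A1 1.35-fold. COL5A2 fell 1.92-fold (-0.94, SE 0.11, adjusted p = 7.0e-05), and COL4A1 and COL15A1 gave -0.39 and -0.49. Without replicate 1 of 50% confluence 4 calls were left, with COL6A1 at an adjusted p of 0.082, COL16A1 at 0.23 and COL4A1 at 0.053. Without replicate 1 of DMEM COL16A1 and COL4A1 had 0.22 and 0.14, without its replicate 2 COL6A1 had 0.065, and without replicate 2 of 50% confluence COL4A1 had 0.12. In RPMI-1640 0 of 43 collagens were called with limma, where 0.220% of all probes were called, and the collagen differences lay between -0.22 and 0.43. At an unadjusted p under 0.05 limma gave 3 collagens, where 8.79% of all probes passed, and the plain t-test 1.

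**Figure D4:**
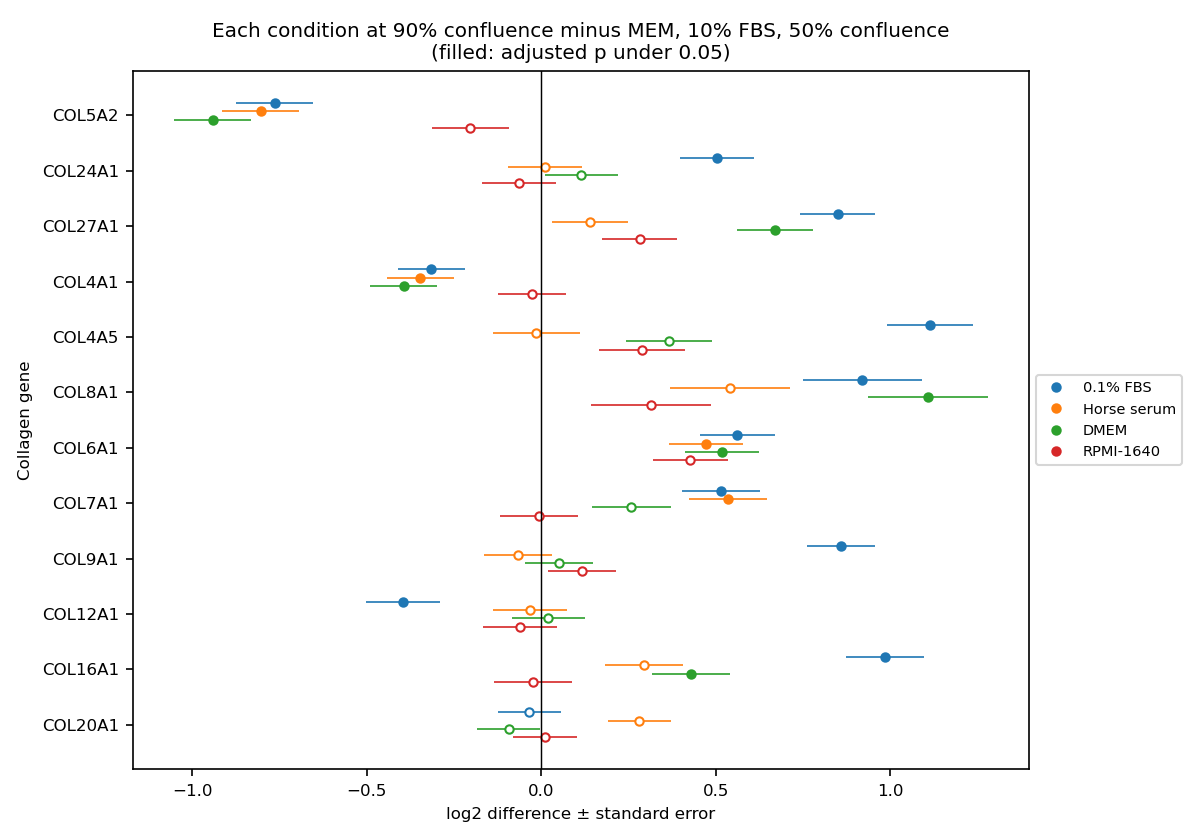
Log2 difference ± standard error of 4 conditions at 90% confluence (colors) from 50% confluence in MEM with 10% FBS for 12 collagens, filled where the limma adjusted p was under 0.05. COL5A2 lay between -0.94 and -0.20 in all 4, and the RPMI-1640 points were all open.

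Genes that build, trim, bind or degrade collagen were counted by list, and no list was tested as a group. Each listed gene also entered by its brightest probe, unlike the shares of all probes set beside the lists. Of 20 listed collagen-modifying enzymes and chaperones 19 were measured, and 11, 11, 10, 10 and 12 were called against MEM 90% at 50% confluence, in 0.1% FBS, horse serum, DMEM and RPMI-1640. The shares of all probes called were 19.8%, 22.3%, 21.9%, 20.9% and 19.2%. All probes include those at background, while 16 of the 19 genes measured were above it on all 12 arrays. Of the members called 7, 7, 6, 7 and 8 were higher and 4, 4, 4, 3 and 4 lower, with list medians of 0.21, 0.04, 0.17, 0.26 and 0.09. PLOD1, a lysyl hydroxylase, had a log2 signal of 11.84 to 12.61 on the other 10 arrays, against 10.67 and 10.55 in MEM 90%, and rose by 1.87, 1.29, 1.85, 1.83 and 1.81. FKBP14, a prolyl isomerase that binds procollagen, rose by 1.60, 1.90, 1.31, 1.15 and 1.23, and PLOD3, which adds sugars to collagen, by 0.85, 1.25, 0.91, 1.08 and 1.11. LEPREL1, a prolyl 3-hydroxylase now named P3H2, rose by 0.81, 1.94, 0.66, 1.15 and 0.91. In 0.1% FBS its signal was 11.75 and 11.58 against 9.68 and 9.77 in MEM 90%. P4HA2, a catalytic chain of prolyl 4-hydroxylase, gave -0.89, -1.01, -0.45, -0.51 and -0.85 in the same order, and P4HA1 -0.35, -0.80, -0.89, -0.93 and -0.52. FKBP10 was also called lower in each comparison, and LEPRE1 in all but DMEM.

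Of 14 genes of procollagen trimming and cross-linking 5, 6, 5, 6 and 5 were called in the same order, 2, 3, 2, 3 and 2 higher and 3 lower in each, which is 35.7% to 42.9% of the list against 19.2% to 22.3% of all probes. TGM2, a transglutaminase that cross-links matrix proteins, had a log2 signal of 6.43 to 6.72 on the other 10 arrays, all below background, against 9.53 and 9.42 in MEM 90%. The differences were -3.00, -2.93, -2.94, -2.82 and -2.85. PCOLCE2, an enhancer of procollagen trimming, rose by 1.50, 1.84, 1.17, 1.29 and 1.47, and LOXL4, a lysyl oxidase, gave -1.18, -0.98, -1.07, -1.09 and -0.99. BMP1, the protease that trims the end of fibrillar procollagens, rose by 0.65, 1.10, 0.58, 0.81 and 0.70.

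Of 10 collagen receptors 4, 4, 4, 6 and 5 were called, 3, 3, 3, 3 and 4 higher and 1, 1, 1, 3 and 1 lower, against 19.2% to 22.3% of all probes. DDR2, a receptor kinase for fibrillar collagen, had a log2 signal of 7.72 and 7.97 at 50% confluence, 9.67 and 8.66 in 0.1% FBS, 9.01 and 8.96 in horse serum, 7.74 and 7.50 in DMEM and 8.46 and 8.24 in RPMI-1640, against 6.64 and 6.74 in MEM 90%. The MEM 90% arrays were below background and all others above it, with differences of 1.15, 2.48, 2.30, 0.93 and 1.66. ITGB1, the beta chain shared by the collagen-binding integrins, gave -0.67 in DMEM against MEM 90% and -0.95 in DMEM against RPMI-1640.

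Of 15 basement membrane partners 5, 8, 3, 4 and 7 were called, 1, 4, 1, 1 and 2 higher and 4, 4, 2, 3 and 5 lower. The share in horse serum, 20%, was below the 21.9% of all probes and that in DMEM, 26.7%, near the 20.9%, while the others were 33.3%, 53.3% and 46.7% at 50% confluence, in 0.1% FBS and in RPMI-1640, against 19.8%, 22.3% and 19.2%. LAMA5, a laminin chain, had a log2 signal of 7.16 to 8.93 on the other 10 arrays, against 10.33 and 10.37 in MEM 90%, and the differences were -2.56, -1.71, -3.10, -2.49 and -2.39. LAMB1, a widespread laminin chain, ran the other way, with 1.10 at 50% confluence and 1.02 in RPMI-1640.

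Of 13 fibril-associated matrix genes 6, 7, 5, 5 and 5 were called, 4, 4, 3, 3 and 3 higher and 2, 3, 2, 2 and 2 lower, which is 38.5% to 53.8% of the list against 19.2% to 22.3% of all probes. TGFBI, an adhesion protein that binds collagen, had a log2 signal of 7.41 to 9.21 on the other 10 arrays, against 11.96 and 11.93 in MEM 90%, with differences of -2.87, -4.44, -3.96, -4.24 and -2.84. TNC, tenascin-C, ran the other way, at 11.12 to 12.31 on the other 10 arrays, against 9.11 and 8.90 in MEM 90%, with differences of 2.23, 2.31, 3.20, 2.75 and 2.73. THBS1, thrombospondin, gave 1.88 at 50% confluence, 1.65 in horse serum and 1.69 in RPMI-1640, and also, singled out after its values were seen, -1.23 in 0.1% FBS. Of 9 collagen-degrading proteases 3, 4, 3, 2 and 3 were called, 2 higher in each and 1, 2, 1, 0 and 1 lower, against 19.2% to 22.3% of all probes, so that the share in DMEM, 22.2%, was near the 20.9% of all probes. CTSB, cathepsin B, rose by 1.43, 1.31, 1.12, 1.34 and 1.46. CTSL1, another cathepsin, gave -1.04 at 50% confluence, -0.50 in 0.1% FBS, -0.56 in horse serum and -1.07 in RPMI-1640 and was not called in DMEM. Medians of these other 5 lists lay between -0.16 and 0.25.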

How the data were processed

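RNA of MDA-MB-231 cells was hybridized to 12 Illumina HumanHT-12 v4 BeadChip arrays, 2 for each of 6 culture conditions. The deposited intensity table had been quantile-normalized between the arrays by the authors, who exported it with BeadStudio, and the step was checked on the values. The authors also deposited log2 values of these signals, which were used here, and whose copy in the series table was identical. Background correction and detection p-values are not given in the sources used here. The linear and log2 tables differed in 8 probes, none of a collagen, and 3270 probes had no gene name.

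From the log2 values 1 mean per condition was fitted over all 12 arrays with limma 3.58.1 in R 4.3.3 (lmFit and eBayes, 6 residual degrees of freedom and 8.96 added by the prior), with Benjamini-Hochberg adjustment over 47231 probes in each comparison and a threshold of 0.05. A background on each array was taken from the olfactory receptor probes, and where the dimmer condition was below it on both arrays, the fold is a bound against that background. Collagens above background on both arrays of a condition were named with values, and of the other lists up to 4 called members per comparison with the largest differences; values of some of these are not reported here. The collagens and the lists were chosen with earlier results of these data known. Data of 47231 probes were simulated from the means over all 12 arrays with independent noise of the averaged variance of the 6 conditions. Changes were put into a few probes of the 50% confluence arrays, drawn from a filtered subset and not from all probes. There limma found 39.6% of 1.5-fold, 85.9% of 2-fold and 99.5% of 4-fold changes, so weak changes can be missed, and made 21 false calls among 141093 unchanged probes. In the real comparison of 50% with 90% confluence 19.8% of all probes were called, so these rates need not hold there. Quantile normalization gives all arrays the same distribution, so the values are relative within an array, and 2 arrays per condition limit the precision. Promoter windows came from RefSeq (GRCh38.p14) and were searched with Python 3.11.15. The settings varied were the table, the scaling, the filter, the variance model, the arrays left out, the probes of a gene and the test.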

Additional observations from a re-analysis of the deposited data

How the results depend on the processing

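Over the 109 collagen differences called for collagens above background in at least 1 condition, no alternative turned a direction. The t-tests, the variance settings and the replicate block leave the differences as they are, so they could not turn one. A dimmer probe of the same gene had the opposite sign in at least 1 called comparison for COL4A5, COL6A2, COL8A1, COL8A2, COL9A1, COL12A1 and COL18A1, and was itself called only for COL8A1. All 109 calls held with the linear table normalized again, the series table, 2 shifts of the arrays, the filter on background and 1 probe per gene. The series table was identical, and the second normalization moved values by at most 0.025 log2. Shifts change little in arrays that share a distribution, so these settings could hardly end a call. The methods' t-test with Benjamini-Hochberg adjustment called 0 collagens in each comparison except DMEM against MEM 90%, where it called 3. Of the 109 calls 106 were thus lost. At its own threshold of P under 0.001 the t-test called 0 at 50% confluence, 5 in 0.1% FBS, 2 in horse serum, 4 in DMEM and 1 in RPMI-1640 against MEM 90%, and 0 in DMEM against RPMI-1640 and in 0.1% FBS, horse serum and DMEM against 50% confluence. Of the 109 calls 97 were lost at this threshold, and the share of all probes that passed it is not given here. For DMEM against RPMI-1640 (5 calls) the count was 3 with a trended, robust variance, 3 in a fit without the MEM 90% arrays, which was chosen after seeing the data, and 1 to 6 with any 1 array left out. For horse serum against 50% confluence (5 calls) it was 3 with only the conditions compared and 2 to 6 with 1 array left out, and for DMEM against 50% confluence (7 calls) 4 to 7. With 1 array left out, the calls against MEM 90% were 16 to 17 at 50% confluence, 16 to 19 in 0.1% FBS, 16 to 18 in horse serum, 15 to 17 in DMEM and 15 to 17 in RPMI-1640. With a single array per condition, where fewer arrays have to pass, 13 to 15 collagens were above background at 50% confluence (9 on both) and 14 to 20 in RPMI-1640 (13 on both).

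The replicate numbers do not pair the samples: deviations of same-numbered arrays correlated at -0.062 to 0.13 over 15 pairs of conditions, with 1 pair over 0.1. With the replicate number as a block, the counts in the order 50% confluence, 0.1% FBS, horse serum, DMEM and RPMI-1640 against MEM 90% were 17, 19, 17, 17 and 16, and no call of a collagen above background changed. That count was 5 in DMEM against RPMI-1640, 11, 5, 7 and 0 in 0.1% FBS, horse serum, DMEM and RPMI-1640 against 50% confluence, 21 over all 6 conditions and 12 over the 5 without MEM 90%.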
